A study of Mus musculus with 8 samples.

Results

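Mouse small-intestinal organoids labelled as Tcf7l2 null and overexpressing Ascl2 were compared with organoids transduced with dsGFP on 1 array, which is read here together with the self-self array of the same experiment. These are 2 of the 8 arrays of the series. Organoids of this kind are crypt-like epithelial structures kept in culture. Per the labels, both cultures were exposed to 4OH-tamoxifen for 16 h. The labels give this as the step meant to delete Tcf7l2 and induce Ascl2 in the first culture and to induce GFP in the control. RNA of the labelled culture (called its own RNA below) was in Cy5 and that of the dsGFP control in Cy3, and the self-self array held dsGFP RNA in both colours. The Cre driver, the promoter of the Ascl2 construct in this experiment, the deleted part of Tcf7l2, the mouse strain and the number of lines or clones are not given in the sources used here. With 1 array there is no replicate, so every value is a description and no test was made.

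Tcf7l2 is a DNA-binding protein of the Wnt pathway that turns on target genes when it is joined by beta-catenin. In the small intestine the Wnt pathway keeps crypt base columnar stem cells dividing and supports Paneth cells, the antimicrobial secretory cells beside them. Ascl2, of the basic helix-loop-helix class, regulates transcription in these stem cells and is itself a Wnt target. By its labels, the combined array addresses how the crypt programme looks when Ascl2 is supplied in the absence of Tcf7l2. The probes of these genes did not bear out the labels, as described below.

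Values are log2 ratios of own RNA over dsGFP RNA, less the ratio of the same probe on the self-self array, so a value of 1 is 2-fold higher and -1 is 2-fold lower. The brightest probe stands for each of 19275 genes. Of these, 205 genes (1.06%) reached 2-fold higher or more and 417 (2.16%) reached 2-fold lower or more, and the median of all genes was 0.01. The split depended on the scaling, with 1089 higher and 1162 lower by the scanner's own log ratio and 182 and 611 with median centring in place of loess. On the self-self array alone, the same counts were 1 and 3 genes. The self-self array of experiment 3 less that of experiment 2, which differ in slide and control RNA, gave 172 and 14. The dsGFP RNA was read in 5 channels over the 4 arrays of experiment 2, and the log2 signals of a gene spanned a median of 0.3 over them. Own RNA lay above all 5 dsGFP channels for 204 of the 205 higher genes and below all 5 for 409 of the 417 lower genes. The same was so for 30.6% of all genes above and 24.8% below. The 2-fold genes were picked by a ratio that uses 3 of these 5 channels, so their counts outside the range are not separate support. On this array 18 genes had a dsGFP signal more than 4-fold under the lowest of the other 4 dsGFP channels. None of them was at least 2-fold in either direction or in a list described below. Single organoid cultures were measured in bulk, so fewer cells of a type and less RNA per cell cannot be told apart.

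**Figure D1:**
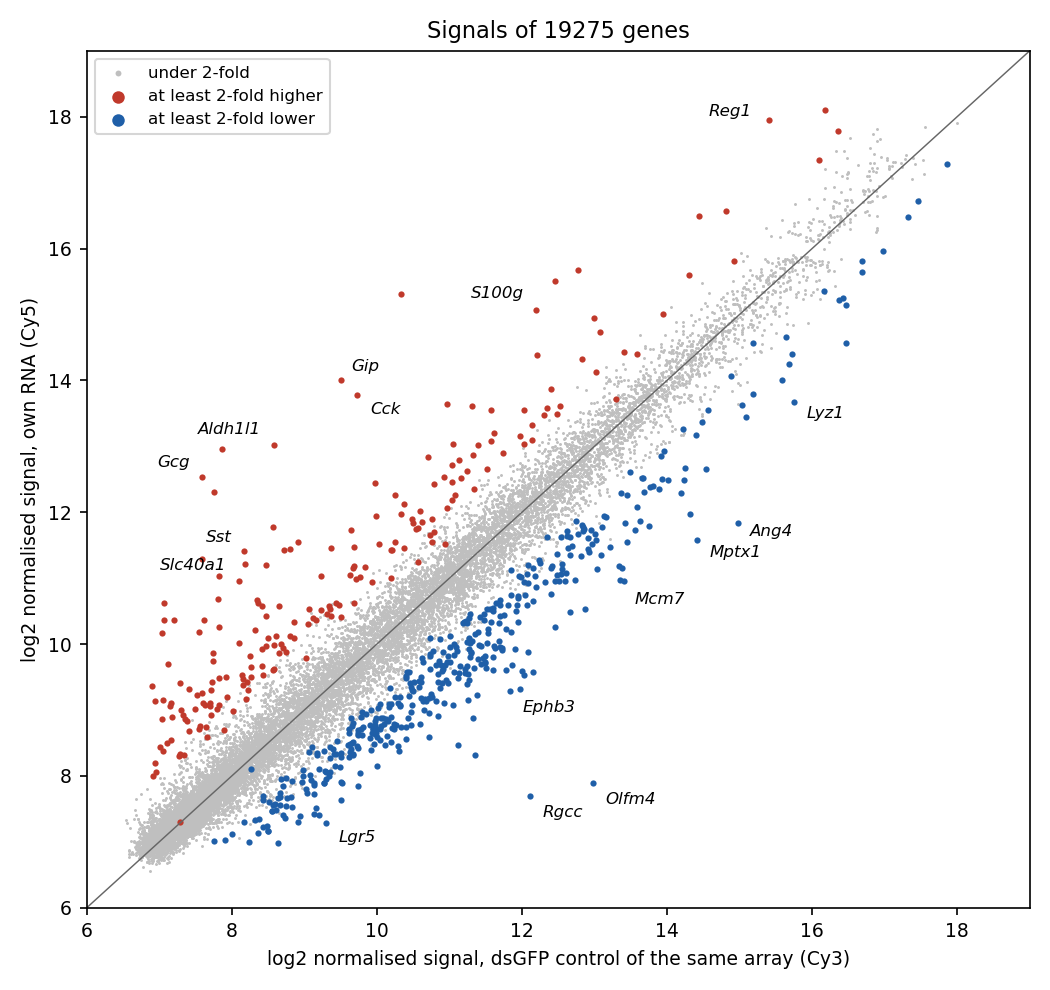
Log2 normalised signal of own RNA (Cy5, vertical axis) against the dsGFP control of the same array (Cy3, horizontal axis) for 19275 genes, with the 205 at least 2-fold higher in red and the 417 at least 2-fold lower in blue. Most genes lie along the line of equal signal, while gut hormone genes such as Gcg and Gip stand far above it and Olfm4 and Rgcc far below.

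The labelled tissue was checked against its markers. All 12 intestinal epithelium markers were well above background in both channels. Of 7 measured mesenchyme markers, 2 were well above background in own RNA, and Col1a1, Col3a1, Dcn, Sparc and Fn1 were above it in neither channel. The summed signal of the 8 measured immune markers was 1957 in own RNA and between 1941 and 2056 in the dsGFP channels of the 2 arrays.

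The targeted genes did not bear out the labels, although the probes may lie outside what was deleted or introduced. The only Ascl2 probe (mm9 chromosome 7, 150154439 to 150154498) had a signal of 278 in own RNA against 395 to 528 over the 5 dsGFP channels. Its value was -0.94, so Ascl2 was read lower, not higher, on the array labelled as overexpressing it. The 3 probes of Tcf7l2 on chromosome 19 gave 0.06, -0.05 and -0.20. The brightest of them (mm9 56007586 to 56007645) read 2263 in own RNA and 2005 in the dsGFP RNA of the same array, and 3161 and 2442 on the self-self array. On the array labelled Tcf7l2 null this probe was at -0.72, and on the one labelled Ascl2 over expressing at -0.33. The other Tcf7l2 probes were at 0.10 and -0.03 on the first of these arrays and at 0.19 and 0.30 on the second. The same Ascl2 probe was also below 0 on the other arrays of experiment 2, at -0.69 on the one labelled Ascl2 over expressing and -0.58 on the one labelled Tcf7l2 null. It was at -0.80 on the array labelled Ascl2 null in experiment 3, which had another control. Directions below are those of the array labelled as Tcf7l2 null and overexpressing Ascl2.

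Genes that copy DNA were lower almost as a group. DNA is copied once per cell cycle by the Mcm helicase, which is loaded at origins, activated together with Cdc45 and Gins, and followed by polymerases, a sliding clamp and ligase. Of 49 measured genes of DNA replication, 28 (57.1%) were at least 2-fold lower and none at least 2-fold higher, with a median of -1.09. Own RNA lay below all 5 dsGFP channels for 45 of the 49.

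Origin licensing genes had a median of -1.21 over 11 genes, 8 of them at least 2-fold lower. Mcm7, a helicase subunit, read 1988 in own RNA against 8294 to 10835 in the dsGFP channels, a value of -2.25. Its partner subunits were also below the whole dsGFP range, with Mcm4 at -1.97, Mcm6 at -1.90, Mcm5 at -1.72 and Mcm3 at -1.54. Cdt1, which loads the helicase, was at -0.92 and Orc1, part of the origin complex, at -0.48. Among the genes that fire and hold the fork, 3 of 10 were at least 2-fold lower: the fork protector Tipin (-2.0) and the helicase partners Gins1 (-1.71 and -1.55 by its probes) and Gins2 (-1.68). The 16 polymerase, clamp and ligase genes had a median of -0.98, and 7 of them reached 2-fold lower, led by Pole (-1.77), Lig1 (-1.73) and Pola1 (-1.71). Pcna, the sliding clamp, was an exception: 15252 in own RNA fell inside the dsGFP range of 14951 to 18296, and its value was -0.16.

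Supply of nucleotides and copying of chromatin gave the deepest medians, -1.39 and -1.60 over 6 genes each. Rrm1, the large subunit of ribonucleotide reductase, was at -1.64, and Dut, which removes dUTP, read 1978 against 5849 to 7437 (-1.77 and -1.57 by its probes). Uhrf1, which guides DNA methylation to copied strands, read 598 against 2658 to 3347, and its probes gave -2.20 and -2.0. Chaf1b, which places histones on new DNA, was at -2.15 and Dnmt1, the maintenance methyltransferase, at -1.54. The histone genes themselves had a median of -0.63, and 5 of 24 were at least 2-fold lower, including H2ac13 (-2.04), H2ac23 (-2.0) and H2ac15 (-1.91). Histone genes are near-identical copies whose probes can share RNA, so the single members are uncertain.

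Genes of mitosis followed. Of 46 measured genes, 28 (60.9%) were at least 2-fold lower, none was at least 2-fold higher and the median was -1.09. Mki67, a marker of cycling cells, read 2258 against 8290 to 10995 and was at -1.71 and -1.30 by its 2 probes. Cdc20, the activator of the anaphase-promoting complex, read 2777 against 6998 to 7722 (-1.54). Both lay far outside the spread of the dsGFP channels. The kinases Aurka and Plk1 were at -1.31 and -1.24, the cyclins Ccnb2, Ccnb1 and Ccna2 at -1.30, -1.29 and -1.28, and Foxm1, a transcription factor of G2 genes, at -1.26. The spindle motor Kif20a read 1441 against 4254 to 6505, and its probes gave -1.74 and -1.60. Probes did not always agree: those of the kinetochore motor Cenpe ran from -1.79 to -0.26 and those of Top2a, the mitotic topoisomerase, from -1.10 to -0.06. The brightest probe of each gene gave the lower value in both cases.

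Regulators of entry into the cycle were lower in part. Of 26 measured G1 genes, 4 were at least 2-fold lower with a median of -0.32: the D cyclin Ccnd2 (5759 against 11401 to 19247, -1.44), its kinase partner Cdk6 (-1.53 at the brightest of 3 probes and -0.16 at the highest), the E cyclin Ccne1 (-1.37, and -0.57 at a second probe) and the repressor E2f7 (-1.43). The 7 measured cyclin-dependent kinase inhibitors had a median of -0.15 with none 2-fold in either direction, and Cdkn1a was at -0.26. The 26 p53 targets had a median of -0.11, again with none past 2-fold.

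Promoters of the replication and mitosis genes are shown because members of both groups were lower together and because short motifs of cell cycle promoters can be read in them. RefSeq windows (assembly GRCm38.p6) run from 250 bases before to 50 bases after each start. They were found for 39 of the 49 replication genes (48 windows) and for 39 of the 46 mitosis genes (40 windows). Motifs were searched on both strands, and none of the searched motifs contains another. A match describes letters in the window and is neither a binding site nor a cause. An E2F-type motif, TTTCCCGC or TTTGGCGC, stood in 13 of 48 replication windows (27.1%), against 2.46% of the 15504 windows of measured genes and 1.56% of all 32851 windows of the table. Printed first are the 150 bases before the start of the 5 replication genes that were at least 2-fold lower and hold the motif there, in capitals, written 5′ to 3′ on the gene's strand. They are Mcm6 at chr1:128359706-128359855 (minus strand), Mcm5 at chr8:75109359-75109508 (plus strand), Pola1 at chrX:93632156-93632305 (minus strand), Hells at chr19:38930840-38930989 (plus strand) and Cdc6 at chr11:98908001-98908150 (plus strand).
Mcm6: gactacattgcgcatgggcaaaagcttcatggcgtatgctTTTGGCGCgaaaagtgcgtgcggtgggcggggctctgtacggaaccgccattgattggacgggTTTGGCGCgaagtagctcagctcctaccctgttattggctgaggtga
Mcm5: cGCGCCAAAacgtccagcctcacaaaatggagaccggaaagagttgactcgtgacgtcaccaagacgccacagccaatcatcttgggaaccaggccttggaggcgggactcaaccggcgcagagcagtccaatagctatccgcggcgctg
Pola1: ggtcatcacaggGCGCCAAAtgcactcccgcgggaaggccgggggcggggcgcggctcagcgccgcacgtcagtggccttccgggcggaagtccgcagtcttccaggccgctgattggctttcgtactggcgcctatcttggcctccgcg
Hells: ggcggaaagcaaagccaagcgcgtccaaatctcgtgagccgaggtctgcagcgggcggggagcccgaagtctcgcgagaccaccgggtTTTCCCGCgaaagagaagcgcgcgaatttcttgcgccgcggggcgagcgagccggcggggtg
Cdc6: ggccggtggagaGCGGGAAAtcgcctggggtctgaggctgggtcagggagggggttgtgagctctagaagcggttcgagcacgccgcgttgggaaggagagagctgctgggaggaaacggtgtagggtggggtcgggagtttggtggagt
Mcm6 holds TTTGGCGC in both places, starting 110 and 47 bases before the start, while Mcm5 and Pola1 hold its reverse complement 149 and 138 bases before it. Over the 13 replication genes with a motif in the full window the median was -1.51, and over the 26 without one it was -1.02. The shares at least 2-fold lower were similar, 8 of 13 with a motif and 15 of 26 without.

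The motif TTTGAA, known as a cell cycle homology region, stood in 29 of 40 mitosis windows (72.5%), against 13.4% of the windows of measured genes and 17.9% of the table. CCAAT stood in 31 of 40 (77.5%), against 37.7% and 37.4%. Shown are the 150 bases before the start of the 6 mitosis genes that were at least 2-fold lower and hold TTTGAA or its reverse complement TTCAAA within 30 bases of the start, with it and CCAAT or its complement ATTGG in capitals. They are Ncapg at chr5:45669775-45669924 (plus strand), Cdc20 at chr4:118437344-118437493 (minus strand), Kif22 at chr7:127042421-127042570 (minus strand), Prc1 at chr7:80294326-80294475 (plus strand), Top2a at chr11:99024190-99024339 (minus strand) and Ube2c at chr2:164769779-164769928 (plus strand).
Ncapg: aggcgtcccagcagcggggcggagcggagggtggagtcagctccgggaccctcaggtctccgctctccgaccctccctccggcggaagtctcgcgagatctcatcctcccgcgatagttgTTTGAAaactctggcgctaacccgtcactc
Cdc20: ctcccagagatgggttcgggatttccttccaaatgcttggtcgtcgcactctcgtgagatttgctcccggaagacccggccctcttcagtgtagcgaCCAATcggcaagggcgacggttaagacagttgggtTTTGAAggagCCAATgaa
Kif22: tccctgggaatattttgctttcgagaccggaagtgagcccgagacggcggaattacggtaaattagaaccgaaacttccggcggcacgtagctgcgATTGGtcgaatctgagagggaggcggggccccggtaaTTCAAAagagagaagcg
Prc1: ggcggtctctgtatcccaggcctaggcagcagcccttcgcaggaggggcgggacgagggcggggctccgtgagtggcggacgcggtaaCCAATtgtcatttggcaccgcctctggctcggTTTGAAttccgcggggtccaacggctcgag
Top2a: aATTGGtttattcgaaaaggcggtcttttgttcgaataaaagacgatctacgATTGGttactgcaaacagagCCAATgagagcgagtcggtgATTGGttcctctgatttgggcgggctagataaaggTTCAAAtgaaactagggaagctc
Ube2c: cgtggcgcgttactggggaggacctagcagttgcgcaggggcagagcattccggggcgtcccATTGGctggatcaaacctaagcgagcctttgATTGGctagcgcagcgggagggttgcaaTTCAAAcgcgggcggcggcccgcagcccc
In Cdc20, Kif22, Prc1, Top2a and Ube2c a CCAAT letter group lies 53 to 62 bases before the start, upstream of the TTTGAA group, whereas Ncapg holds no CCAAT in the stretch shown. Carrying the motif did not order the values: the 28 mitosis genes with TTTGAA in the window had a median of -1.04 and the 11 without it -1.14. Over all windows of genes at least 2-fold lower the E2F-type share was 31 of 348 (8.91%), and it was 21 of 296 (7.09%) outside the replication and mitosis lists. Windows of genes at least 2-fold higher held it in 4 of 188 cases (2.13%). The E-box CAGCTG, a motif of basic helix-loop-helix factors, stood in 14.4% of the windows of higher genes, 17% of those of lower genes and 15.8% of those of all measured genes.

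Many listed growth and one-carbon metabolism genes were lower beside the cell cycle. The folate dehydrogenase Aldh1l1, which is not in the list, went the other way at 4.51. Myc, a Wnt target that drives ribosome and nucleotide synthesis, read 700 against 1842 to 2518 and gave -1.40 to -1.20 over its 3 probes. Mycn, its relative, was read higher at 1.13, with a second probe at -0.07. Nucleolar genes had a median of -0.62 over 20 genes, 19 of them negative, and Nop56 (-1.21, and -0.46 at its other probe) and Gnl3 (-1.17) were past 2-fold. The 39 ribosomal protein genes stayed between -0.45 and 0.24 with a median of -0.14, on probes whose self-self median was 0.18. Of 21 genes of serine, folate and purine synthesis, 9 (42.9%) were at least 2-fold lower with a median of -0.96. Phgdh, the first enzyme of serine synthesis, read 5381 against 10836 to 14339 (-1.41 at its brightest probe and -0.92 at its highest), and the purine enzymes Paics, Ppat and Gart were at -1.37, -1.21 and -1.16. Glycolysis and hypoxia genes had a median of -0.32, with Bnip3 (-1.16), Slc16a3 (-1.12), P4ha2 (-1.10), Hk1 (-1.05, with another of its 5 probes at 0.32) and Ddit4 (-1.03) at least 2-fold lower. The aldolase Aldoc was the member at least 2-fold higher (1.01 and 1.07 by its probes). The 49 respiratory chain genes had a median of -0.02 and a range from -0.27 to 0.33.

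**Figure D2:**
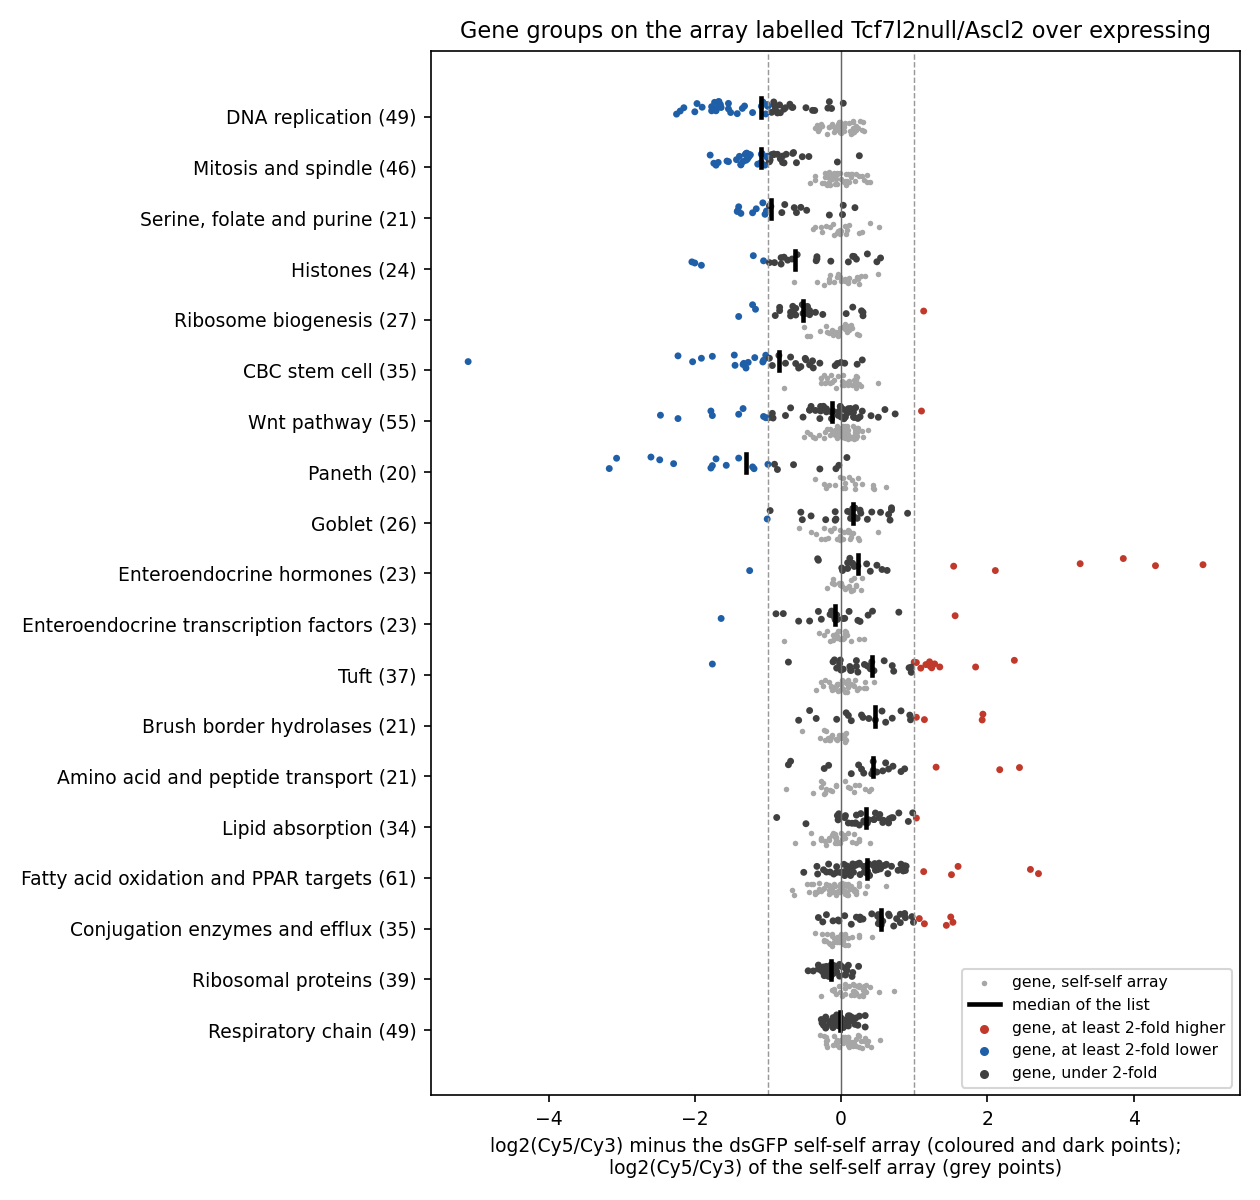
Values of the measured genes of 19 lists (number of genes in parentheses) on the horizontal axis in log2 units, with genes at least 2-fold higher in red, at least 2-fold lower in blue, the rest dark, list medians as black bars and the self-self array in grey. Replication and mitosis genes sit mostly at or beyond -1, with medians of -1.09, hormone genes hold a few very high members, and ribosomal protein and respiratory chain genes stay close to 0.

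Crypt stem cell genes were lower, by very different amounts. Olfm4, a secreted glycoprotein and stem cell marker, had the lowest value of all measured genes. It read 237 in own RNA against 7618 to 8094 over the 5 dsGFP channels, 34.4-fold lower (mm9 chromosome 14, 80421398 to 80421457), and its 2 probes gave -5.10 and -4.52. Lgr5, the R-spondin receptor that defines these cells, read 156 against 632 to 899 (-2.23). Among all 35 measured stem cell genes, 15 (42.9%) were at least 2-fold lower, none was at least 2-fold higher and the median was -0.85. Own RNA was below all 5 dsGFP channels for 30 of them.

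Secreted and matrix proteins of the list held the largest differences, with a median of -1.30 over 7 genes. Cdca7 (-2.03), placed here although it is a nuclear Myc target, Nrn1 (-1.34) and Smoc2 (1272 against 2699 to 3294; -1.30 and -1.41 by its probes) accompanied Olfm4. Among 8 receptor and surface genes Lgr5 was followed by the ion carrier Slc12a2 (-1.91) and the adhesion receptor Cd44 (-1.03 at its brightest probe, -0.10 at its highest), while Ephb2 was at -0.76 (-0.06 at its other probe) and Prom1 at -0.62. Among 20 nuclear and signalling genes the transcription factors Sox9 (442 against 1539 to 1798, -1.76) and Myb (-1.46) were lowest, but each had a probe near 0, at -0.02 and 0.00. The channel subunits Scn2b and Kcne3 were at -1.45 and -1.33. Axin2, the feedback inhibitor of the Wnt pathway, and Mex3a, an RNA-binding protein, were not well above background in own RNA. Axin2 read 131 against 241 to 503 and Mex3a 151 against 335 to 405, so their folds are not well measured. Of 11 measured markers of the position above the stem cells, 3 were at least 2-fold lower and 1 was at least 2-fold higher, with a median of -0.22. The lower ones were Sox9, Mex3a and Fgfbp1 (-1.27) and the higher one Dclk1 (1.00 at its brightest probe). Lrig1, a brake on growth factor receptors, was at -0.97, Bmi1 at -0.07, Tert at 0.11 and Hopx at 0.42.

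Wnt pathway genes outside the targets were mostly near 0. The 12 genes of the TCF, LEF and beta-catenin group had a median of -0.01 and ranged from -0.52 to 0.60, and the 7 receptors had a median of -0.20 with Fzd7 lowest at -0.93 (-0.05 at its other probe). Of the 16 transcription targets 6 (37.5%) were at least 2-fold lower, with a median of -0.85. Ephb3, a receptor that places Paneth cells at the crypt base, read 623 against 2163 to 3654 (-2.47), and Mmp7, the protease that matures defensins, was at -1.78. Ccnd1 was at -0.99, just under 2-fold. Bambi, a decoy receptor of the BMP pathway, was the highest target at 0.74. Among ligands Wnt3, made by Paneth cells, read 246 against 422 to 545 and gave -1.34 and -1.06. Wnt4 read 323 against 138 to 156 and was well above background in own RNA but in none of the control channels of both arrays.

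Neighbouring pathways held single strong members. The Notch ligand Jag2 and the Notch target Hes5 were at -1.37 and -1.28, while Hes1, the main Notch target of the crypt, was at 0.18 and the secretory factor Atoh1 at 0.26. Smo, the Hedgehog signal transducer, read 770 against 3527 to 4102 at its brightest probe (-2.36), with its second probe at -0.19. Bmp7, a BMP ligand, gave -1.49 and -1.35. Among basic helix-loop-helix factors Bhlha15, a regulator of secretory cells, was at -1.96, with its other probe at 0.00. Id4, an inhibitor of such factors, read 256 against 121 to 127, with no control channel of both arrays well above background.

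Paneth cell genes had a median of -1.30 over 20 measured genes, 12 of them (60%) at least 2-fold lower. Ang4, a ribonuclease of the granules, read 3643 against 26332 to 32170, 9.01-fold lower, and its probes gave -3.17 and -2.59. Mptx1, a pentraxin of Paneth cells, read 3053 against 21862 to 33685 (-3.07). Related ribonucleases Ang2 and Ang6 were at -2.60 and -2.48, and Lyz1, the lysozyme, read 13091 against 39383 to 57310 (-1.71). All 7 measured alpha-defensin genes were below 0, from Defa21 at -2.29 (2276 against 10646 to 13324) to Defa24 at -0.87 (142697 against 142775 to 194739). Their ratios on the self-self array, which are subtracted, had a median of 0.44 and ran from 0.02 to 0.62. Part of each value therefore comes from the subtraction. Own RNA lay below all 5 dsGFP channels for 6 of the 7. Defensin, Ang and lysozyme genes have close relatives, so a probe can read several members. Lectin Itln1, shared with goblet cells, was at -0.65, and Lyz2, the macrophage lysozyme, was not well above background in own RNA.

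Promoter windows were found for 15 of these 20 genes, and 6 of their 16 windows (37.5%) held the TCF-type motif CTTTGAT or its complement ATCAAAG, against 2.91% of the windows of measured genes, 3.16% of those of genes at least 2-fold lower and 4.79% of those at least 2-fold higher. The genes were Defa20, Defa21, Defa22, Defa23 and Mmp7, whose median was -1.76, and the 10 genes without it had a median of -0.78. The lowest Paneth genes with a window, Ang4, Mptx1 and Ang6, are among those without the motif. Defensin promoters are copies of one another: Defa22 has the same 150 bases as Defa21, and Defa20 differs from it at 5 positions, so these are not separate observations. The 150 bases before the start are shown for Defa21 at chr8:21025395-21025544 (plus strand) and Defa23 at chr8:21054890-21055039 (plus strand), with ATCAAAG in capitals, because Tcf7l2 belongs to the family that reads this motif.
Defa21: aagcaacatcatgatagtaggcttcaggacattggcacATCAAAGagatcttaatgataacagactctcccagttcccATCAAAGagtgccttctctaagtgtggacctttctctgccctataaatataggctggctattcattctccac
Defa23: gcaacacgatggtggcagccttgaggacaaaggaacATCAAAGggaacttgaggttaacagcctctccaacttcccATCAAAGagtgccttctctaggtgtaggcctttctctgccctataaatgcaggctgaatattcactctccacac
The motif occurs 112 and 72 bases before the start of Defa21, and 114 and 74 bases before that of Defa23.

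Hormone genes of enteroendocrine cells were higher, but few of them. These cells are scattered through crypt and villus and each makes a few peptide hormones. Gcg, which encodes glucagon-like peptides, read 5937 in own RNA against 164 to 193 over the dsGFP channels, 31-fold higher (mm9 chromosome 2, 62312685 to 62312744; 4.95). Gip, the incretin of K cells, read 16530 against 477 to 727 (4.30), and Cck, the hormone of I cells, read 13979 against 808 to 941 (3.86). Sst, somatostatin of D cells, read 2732 against 164 to 289 (3.27). In these 4 genes own RNA was more than 9-fold above the dsGFP RNA. Pyy was at 2.11, with a second probe at 0.81, and Ghrl, ghrelin, at 1.54 and 1.50.

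The remaining hormone genes did not share this. Of 17 measured peptide genes those 6 were at least 2-fold higher and Nucb2, the nesfatin precursor, was 2-fold lower (-1.25), with a median of 0.35. Secretin, Sct, was at 0.49, Tac1 at 0.35 and Nts at -0.31. The 6 amine genes stayed between 0.02 and 0.56, and Tph1, which starts serotonin synthesis, read 3025 within a dsGFP range of 2552 to 3223. Granins were all above 0 over 7 genes, with a median of 0.48. Scg5, a chaperone of prohormone convertase, read 640 against 147 to 180 (1.69), whereas Chga, the general endocrine marker, read 50938 inside its dsGFP range of 38186 to 53419 (0.52). Transcription factors of the lineage had a median of -0.08 over 23 genes. The 9 early ones had a median of -0.15, with 5 below 0 and 4 above, and the lowest was Pax4 at -1.64. Neurog3, which starts the lineage, was at -0.79 (299 against 384 to 635). Of the 14 later ones, with a median of -0.07, Pdx1 read 467 against 125 to 164, where the control channels of both arrays were not well above background, Isl1 was at 0.79 and Nkx2-2 at 0.43, and Foxa2 at -0.89.

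Tuft cell genes were higher as a group. Tuft cells are chemosensory cells that use taste signalling and release eicosanoids. Of 37 measured genes, 11 (29.7%) were at least 2-fold higher and 1 was at least 2-fold lower, the median was 0.42, and own RNA lay above all 5 dsGFP channels for 25. Nrgn, a calmodulin-binding protein, read 827 against 136 to 167 (2.37). Trpm5, the taste channel, read 781 against 369 to 389 (1.03). The eicosanoid enzymes Alox5, Ptgs1 and Alox5ap were at 1.24, 1.22 and 1.16, the actin binder Avil at 1.35 and Rgs13 at 1.28. Dclk1, the usual marker, was at 1.00 at its brightest probe and 0.24 at the lowest of 4. Pou2f3, the master regulator, was not above background in own RNA or in the control. The member that was lower was Sox9, shared with the stem cell list.

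Goblet cell genes were near the control. Of 26 measured genes none was at least 2-fold higher and 1, the membrane mucin Muc3, was at least 2-fold lower (-1.01, and -0.21 at its other probe), with a median of 0.17. Muc2, the main secreted mucin, was at 0.54 (7035 against 4237 to 6451), Tff3 at 0.13 and Rep15 highest at 0.91. Guca2a, the guanylin precursor, was at -0.97.

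**Figure D3:**
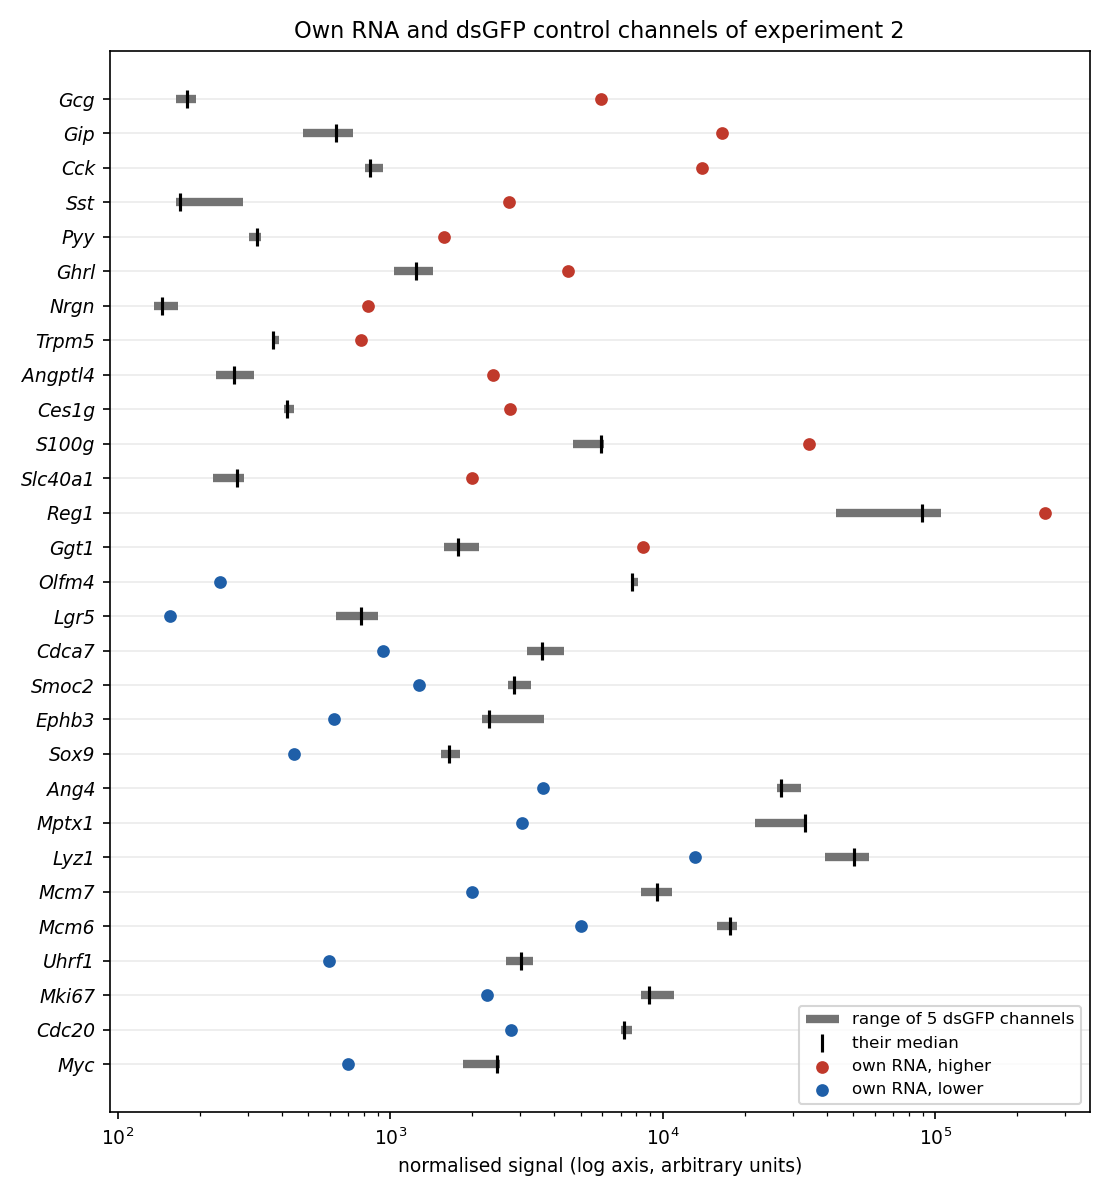
Normalised signal on a log axis of own RNA (coloured points, 1 channel) beside the range (grey bars) and median (black ticks) of the 5 dsGFP channels for 29 genes. Gcg, Gip, Cck and Sst lie furthest to the right of their control range and Olfm4 furthest to the left, and no point falls inside its bar. The genes were picked as leading members of the lists, so the last point follows from the choice. Pcna, Chga, Tph1 and Sis, which are not drawn, fell inside their control range.

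Absorptive enterocyte genes were modestly higher across several lists, but not in all. Villus tip genes had a median of 0.01 over 18 genes, 10 above 0 and 8 below. Microvillus and actin-binding genes had a median of 0.06 over 36, with 3 at least 2-fold lower and 0 higher. Peptidases and phosphatases of the brush border had a median of 0.56 over 17 genes. Ggt1, gamma-glutamyl transferase, read 8433 against 1573 to 2110 (1.93), and Ace and Anpep, both peptidases, were at 1.14 and 1.03. Enpp3 read 1.94 at its brightest probe and -0.21 at its lowest. The 4 disaccharidase genes did not follow, with a median of -0.12, and Sis, sucrase-isomaltase, read 137444 inside its dsGFP range of 133733 to 177858 (0.10).

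Lipid genes were also mostly above 0, and mostly under 2-fold. Of 34 lipid absorption genes 28 were above 0 with a median of 0.34, and the fatty acid carrier Cd36 (1.03) was the member past 2-fold. The fatty acid binding protein Fabp2 was at 0.92, Rbp2 at 0.98 and Apoc3, a lipoprotein component, at -0.88. Of 61 genes of fatty acid oxidation and targets of the PPAR receptors 50 were above 0, with a median of 0.35, and 5 were at least 2-fold higher. Angptl4, an inhibitor of lipoprotein lipase, read 2388 against 230 to 316 (2.70), and Ces1g, a carboxylesterase, read 2760 against 407 to 443 (2.59 and 2.05 by its probes). Bdh2, a ketone-related dehydrogenase, gave 1.60 and 1.44, Vnn1, a pantetheinase, 1.51, and Acot12 read 267 against control channels that were not well above background (123 to 135). Rbp4, the retinol carrier, read 1221 against 206 to 256 (2.25). Sugar transport and metabolism genes did not share this, with a median of -0.06 over 27 genes and 16 below 0. Of these Pygl, liver glycogen phosphorylase, read 1324 against 194 to 229 (2.63), and the glucose carrier homologue Slc5a4b was at 1.13.

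Transporters gave some of the larger single values. S100g, the vitamin D-dependent calcium carrier of duodenal enterocytes, read 34334 against 4701 to 6065 (2.90). Slc40a1, the iron exporter ferroportin, read 1993 against 224 to 291 (2.76), while the 11 iron genes together had a median of 0.51. Slc16a9, a carnitine carrier, and Slc6a20a, a proline carrier, were at 2.44 and 2.17 among 21 amino acid and peptide transporters with a median of 0.44. Slc15a1, the peptide carrier, read 374 against 143 to 230 (1.30). The 14 nuclear receptor genes ranged from 0.01 to 0.54, so all of them stayed under 2-fold. Their part in the values of other genes was not tested.

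Conjugation enzymes and efflux pumps had a median of 0.54 over 35 genes, with 5 at least 2-fold higher. Gstm1, a glutathione transferase, read 279967 against 74303 to 179603 (1.50 and 1.46 by its probes), and Gstm3 read 225879 against 83662 to 105158 (1.53). These genes are close relatives, and their probes may share RNA. For Gstm1 the control of this array, 74303, was the lowest of the 5 dsGFP channels, and the self-self array read 161010 and 120560. Sult1c2 was at 1.44, Nqo1 at 1.14 and Gsta4 at 1.07. Of 27 cytochrome P450 genes none was at least 2-fold higher, and Cyp3a11, a major drug oxidase, read 19549 against 37740 to 52315 (-1.21).

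Antimicrobial lectins of the Reg family differed among themselves. Reg1 read 253328 against 43260 to 105332 (2.63), Reg3g read 97429 against 28770 to 47513 (1.76) and Reg3b was at 1.03. Reg3a was lower, at 63567 against 102612 to 135638 (-1.05). The dsGFP channels of Reg1 themselves spanned more than 2-fold. Psmb8 and Psmb9, subunits of the immunoproteasome, were at 1.97 and 1.14, while 38 interferon response genes had a median of 0.13 and Ifitm3 was at -2.73 (764 against 3845 to 4574).

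Genes of other organs were also read. Afp, alpha-fetoprotein, read 31599 against 8117 to 10436 (1.95) and Alb, albumin, 630 against 167 to 211 (1.66). The 6 measured liver markers summed to 33289 in own RNA and 9157 in the control channel of the array, and Ttr, the transthyretin gene, was above background in neither. Ctrb1, a pancreatic protease precursor, was at -1.88, while Prss2, Pnlip, Cpa1 and Ins1 were above background in neither channel. The part of such cells in any result was not tested.

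Outside the lists, large values were spread over genes of many kinds. The highest value of all, 4.98, was that of Gas6, a ligand of receptor tyrosine kinases, with a log2 signal of 12.96 in own RNA and 7.87 in the control of the array. Gas6 was singled out after its value was seen. Aldh1l1, a folate dehydrogenase, read 8327 against 326 to 382 (4.51), Khdrbs3, an RNA-binding protein, 2513 against 136 to 200 (3.45), and Pcp4l1 3509 against 237 to 381 (3.17). The reductases Cbr3 (52365 against 6579 to 7744, 3.11) and Akr1b8 (46751 against 5599 to 6410, 3.03) were among the brighter ones. Kbtbd11 (4.40) and Dusp16 (2.80) each had another probe near 0, at -0.13 and -0.03. On the lower side Rgcc, a regulator of the cell cycle, read 207 against 4173 to 5032, 25.7-fold lower (-4.68). Tgif2, a transcriptional repressor, was at -2.65. Cbx6 (-3.22), Cdc42ep1 (-2.80) and Aspg (-2.68) had other probes at -0.47, -0.48 and -0.55. Genes with several probes whose values all lay on the same side included Tcea3 (1.75 and 1.60), Agpat4 (1.90 and 1.56) and Ces1c (1.49 and 1.32) on the higher side. Stmn1, a tubulin-binding protein of dividing cells (-2.25 and -1.60), and Fignl1 (-1.66 and -1.54) did so on the lower side.

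The array was set beside the other arrays that carry parts of the same treatment. Arrays labelled Tcf7l2 null and Ascl2 over expressing in experiment 2 used the same dsGFP control and the same self-self array, so their values are given side by side and no agreement between them is counted. Replication genes had medians of -1.09 on the combined array, 0.37 on the array labelled Tcf7l2 null and -0.25 on that labelled Ascl2 over expressing, and mitosis genes -1.09, 0.58 and -0.10. Mcm7 was at -2.25, 0.78 and -0.70 on these arrays, and Cdc20 at -1.54, 0.65 and -0.04. The replication and mitosis medians had opposite signs on the combined and the Tcf7l2 null arrays, a difference with no replicate check. Stem cell genes had medians of -0.85, 0.46 and -0.32, with Olfm4 at -5.10, 0.79 and -1.98 and Lgr5 at -2.23, 0.38 and -1.92. Paneth genes had medians of -1.30, -0.39 and -1.13, and Mptx1 was at -3.07, -1.21 and -3.19. Gcg was at 4.95, 0.96 and 3.88, Gip at 4.30, 0.28 and 3.63, and Nrgn at 2.37, 0.04 and 2.01. Lipid absorption genes had medians of 0.34, -0.52 and -0.15, and fatty acid oxidation genes 0.35, -0.36 and -0.13. Brush border hydrolases had medians of 0.47, -0.43 and 0.09, and conjugation enzymes 0.54, -0.38 and 0.00. Single absorptive genes could be higher on the Ascl2 array than these medians: Ggt1 was at 1.93, -1.02 and 0.71, and Slc6a20a at 2.17, -1.12 and 1.30.

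Experiment 1 gave values of the opposite sign for many of these genes. Its 2 arrays are a dye swap of Ascl2 transduced organoids (Ascl2 driven by CMV, per the labels) against VillinCreERT2 organoids, with no self-self array and a control of another kind. Their mean was -0.90 for Gcg, -0.99 for Gip, -1.08 for Cck and -0.92 for Sst, all of which were far above 0 on the combined array and on the Ascl2 array of experiment 2. Olfm4 was at 0.89 and Lgr5 at 0.55, and the stem cell, Paneth, replication and mitosis medians were 0.26, 0.12, 0.10 and 0.19. The Ascl2 probe itself was at -0.15. Arrays labelled with Ascl2 overexpression in experiments 1 and 2 therefore did not share a direction for these genes. The labels, the controls and the slides differ together between the experiments, and their parts cannot be told apart. Whether the constructs differ is not known, since the promoter used in experiment 2 is not given.

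Ascl2 null organoids of experiment 3 were measured against another control on another slide, with a self-self array of their own. That control is VillinCreERT2 by the genotype label used here and Ascl2loxp/loxp by the description. Over 19232 genes their values correlated with those of the combined array at r = 0.424, where the points are genes and no arrays are shared. Gcg, Gip and Cck were higher there too, at 5.57, 4.95 and 4.74, and Olfm4 and Lgr5 were at -2.26 and -1.01. Replication and mitosis genes had medians of -0.16 and 0.02 and Paneth genes 0.05, so those lists did not share the low values. Neurog3 was at -2.64 and Pax4 at -3.29 there, against -0.79 and -1.64 on the combined array. None of these differences between arrays was tested, since each condition rests on 1 array.

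**Figure D4:**
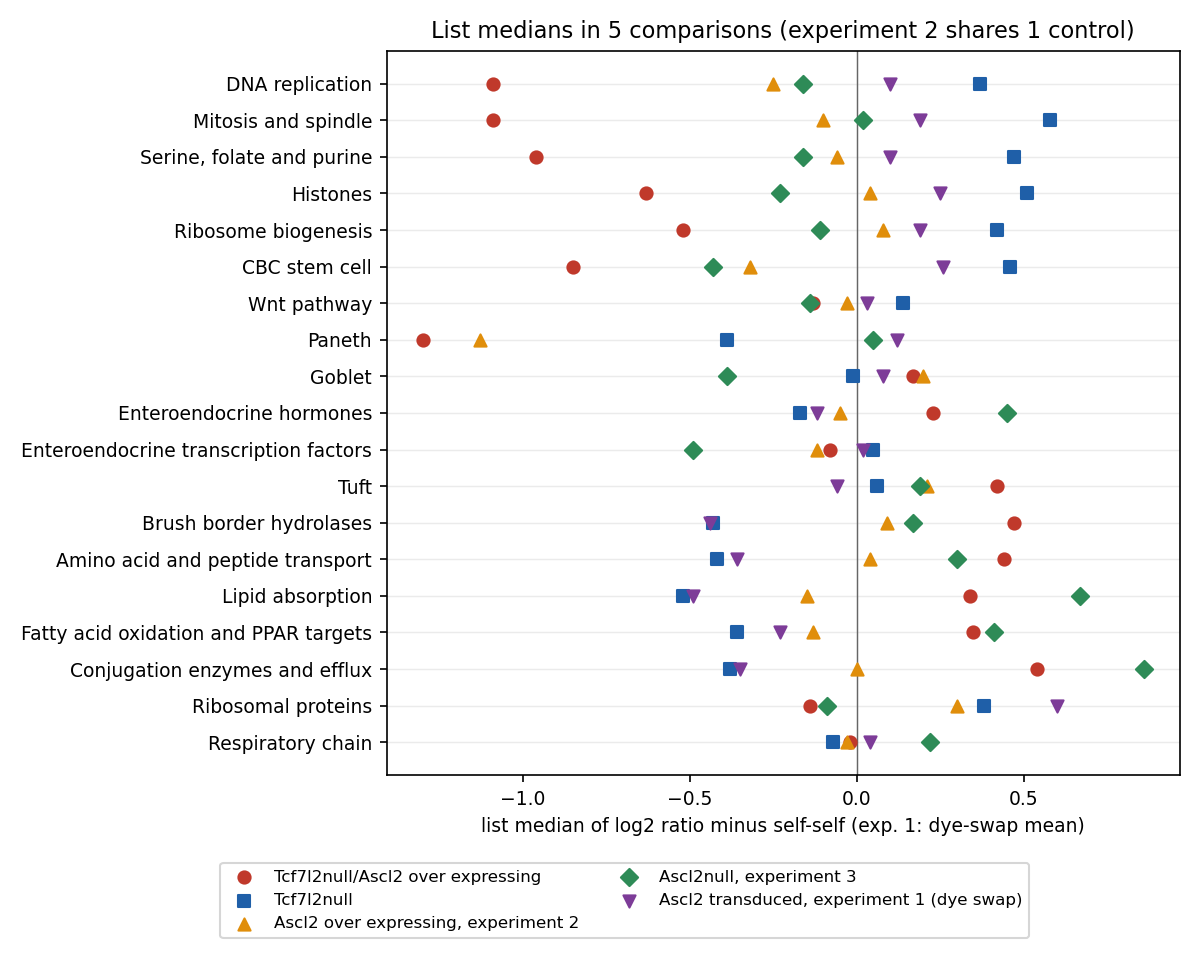
Median log2 value of each of 19 lists on the arrays labelled Tcf7l2null/Ascl2 over expressing (circles), Tcf7l2null (squares), Ascl2 over expressing of experiment 2 (upward triangles) and Ascl2null of experiment 3 (diamonds), each less the self-self array of its experiment, and the mean of the dye swap of experiment 1 (downward triangles). The replication median is -1.09 on the combined array against 0.37, -0.25, -0.16 and 0.10 in the others, and the Paneth median is -1.30 on the combined array, -1.13 on the Ascl2 array of experiment 2 and 0.12 in experiment 1.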

How the data were processed

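Two-colour Agilent 4x44K mouse arrays were measured; per the labels, 500 ng of total RNA was labelled. Per the file headers, the deposited scanner files hold spot intensity values and a log10 ratio from Feature Extraction 10.5.1.1. The authors' deposited table holds log2 ratios; on these arrays they equal the scanner ratio, Cy5 over Cy3, with medians of 0.02 (self-self) and 0.03. Median spot and local background intensities were corrected by normexp (offset 50) and normalised by loess within each array, with control and outlier spots at weight 0 (R 4.3.3, limma 3.58.1). Signals were then scaled between arrays (Aquantile). Loess centres each array, so a shift of all genes cannot be seen. No spot was saturated. Of 41174 probes, 27617 passed the filter (either channel well above background in 2 or more of the 8 arrays) and 27504 were measured on both arrays. RefSeq (GRCm38.p6) named 26918 probes by their own accession and 111 by another, and 14145 kept the array's name. Probe coordinates are mm9; whether they lie in exons or introns was not analysed here. For 189 probes with replicate spots the median SD of the log2 ratio was 0.0721. Precision is limited by the number of arrays. This calculation was tested on simulated data in which only brighter probes changed, equally often up and down. Changes in dim probes and an uneven split were not simulated. Gene lists and members were chosen with earlier results of these data known. Genes were named if they belonged to a list or were Ascl2 or Tcf7l2. Also named were the 12 highest and 12 lowest genes measured in all channels and 2-fold by the reported, the scanner's and the authors' ratios. The last 2 of these are equal on these arrays, so they are not separate checks. The 8 highest and 8 lowest genes over all their probes were named too, and Gas6 falls outside these rules. Of the 9 alternatives tried, the effects are given at the end.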

Additional observations from a re-analysis of the deposited data

How the results depend on the processing

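All 205 higher and 417 lower genes kept their direction under every alternative that gave them a value, including the authors' deposited table (185 and 416 genes with a value). That table holds the scanner's ratios on these arrays, so it is not a check separate from them. Counts at 2-fold were 1089 higher and 1162 lower with the scanner's log ratio, which has no offset, and 519 and 798 in the authors' deposited table. Higher genes made up 33% of the 2-fold genes as reported, 48.4% with the scanner's ratio and 23% with median centring in place of loess (182 and 611 genes). Of the reported genes, 204 and 409 were still 2-fold by the scanner's ratio, 186 and 338 without subtracting the self-self array, and 180 and 416 with median centring. The replication median was -1.29 with median centring, -1.68 and -1.69 by the scanner's ratio and the authors' table, and -1.36 with an offset of 16. The mitosis median was -1.29, -1.43 and -1.43 under the first 3 of these and -0.86 as the median over a gene's probes. The stem cell median was -1.23 and -1.35 by the scanner's ratio and the authors' table, and the tuft median 0.73 and 1.11. The Paneth median was -1.10 without the self-self array, and the serine, folate and purine median -0.77 over a gene's probes. The offset of 50 draws ratios of dim genes toward 0. No paired analysis was possible because each group holds 1 array. Without replicates the spread between cultures is unknown.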
